A study of Mus musculus with 8 samples.

Results

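The proteasome subunit genes described here are the rows of the deposited gene table whose symbol is Psma, Psmb, Psmc, Psmd, Psme, Psmf or Psmg followed by a number and at most 1 letter. There were 48 such genes among 17631, all of them protein-coding in the annotation and spread over 16 chromosomes. Psmc3ip, a recombination factor with a similar name, was not taken. The thymus-specific core subunit Psmb11 was not analysed here.

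The proteasome is the barrel-shaped protease that degrades most short-lived and damaged proteins of the cell after they have been marked with ubiquitin. Its 20S core consists of outer rings of alpha subunits, which form the gate, and inner rings of beta subunits, which hold the proteolytic sites. The 19S regulatory particle caps the core: its base unfolds substrates with a ring of ATPases, and its lid removes ubiquitin. In cells exposed to interferon and in immune cells, the catalytic beta subunits are exchanged for immunoproteasome subunits, which favour the production of peptides for display on MHC class I. Dedicated chaperones assemble the core and the base, and alternative activators can replace the 19S particle.

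RNA was sequenced from the apical part of mouse lower first molars, where the root grows, at postnatal day 7.5 in 2 groups of 4 libraries on a C57BL/6 background. Mutant animals were Gli1-CreERT2;Runx2fl/fl and control animals Runx2fl/fl, so both groups carried the floxed alleles of Runx2, a transcription factor needed for bone formation. Both groups received tamoxifen on postnatal day 3.5, per the labels, dosed at 1.5 mg for each 10 g of mouse. The recombinase CreERT2 acts where the hedgehog target gene Gli1 is expressed, so other cells of the molar keep Runx2. Only mutant animals carry the driver, and what it does by itself cannot be told apart from the loss of Runx2. The labels do not say whether a library is 1 animal or a pool.

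The deposited table gives a mean per group and no value per library. Levels below are therefore the authors' group means of normalised signal on a linear scale, with no spread between libraries and no depth per library. The p-values are the authors' own, from the authors' deposited table, and they rest on library-to-library variation that may be technical. The adjusted p is their Benjamini-Hochberg adjustment over all 17631 genes, with 0.05 as the threshold. Log2 ratios are mutant over control. How the signal was scaled for gene length is not given in the sources used here, so levels were compared between groups and not between genes. In bulk tissue, fewer cells of a type and less RNA per cell cannot be told apart. Runx2 itself averaged 65.1 in mutant molars, against 105.5 in control molars (adjusted p = 0.0646 in the authors' deposited table). Gli1 averaged 19.9 in mutant molars, against 38.8 in control molars (adjusted p = 0.0228 in the authors' deposited table), and the cause was not tested. Odontoblast and ameloblast markers were plentiful, with the dentin gene Dspp at 7360 in mutant molars, against 7714 in control molars, and the enamel gene Amelx at 112174 in mutant molars, against 174946 in control molars.

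No proteasome gene passed the threshold: 0 of 48 members had an adjusted p under 0.05 in the authors' deposited table, where 0.788% of all genes did. The lowest adjusted p among the members was 0.114, for Psmb3. At an unadjusted p under 0.05 there were 11 members, all with the lower mean in the mutant. These are 22.9% of the 48, against 9.4% of all genes with such a p and a lower mean, and none of the 48 was higher at that level, against 9.89% of all genes. The differences were small. The median log2 ratio of the members was -0.06, with a range of -0.32 to 0.21, against a median of 0.0033 over all genes. Of the 48, 31 (64.6%) had the lower mean in the mutant, against 49.4% of all genes. The widest difference, that of Psmb3, was 1.25-fold. Members of a complex are not independent of each other, and these counts were not tested as a group.

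**Figure D1:**
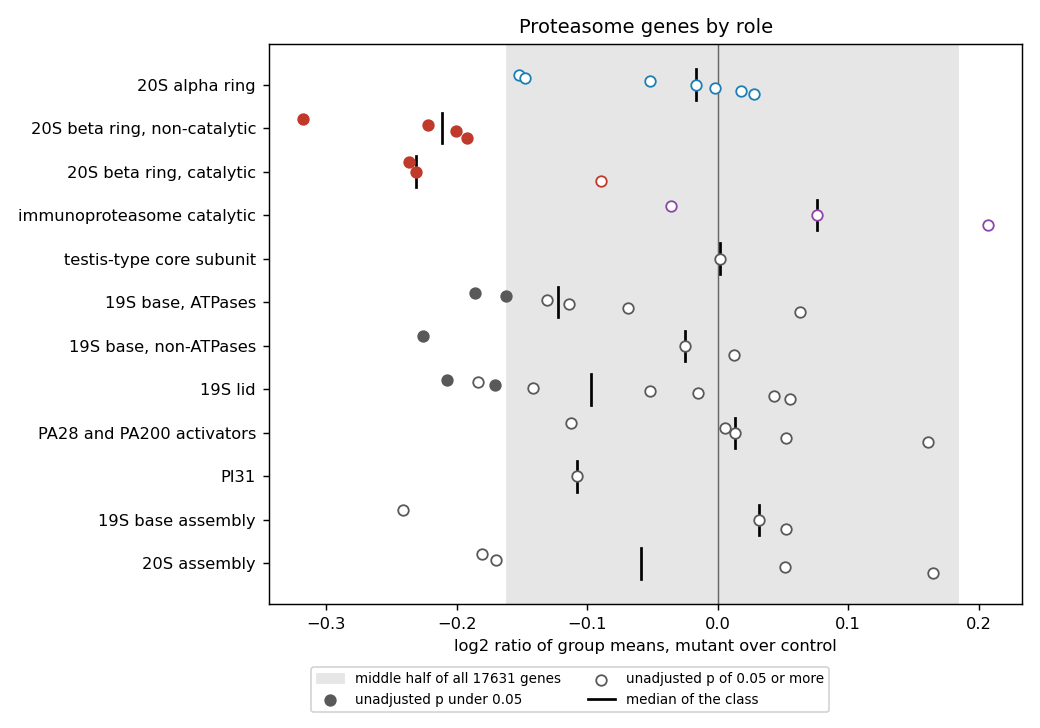
Log2 ratio of group means, mutant over control, for each of the 48 proteasome genes, in rows by role in the complex. Each point is 1 gene, filled where the unadjusted p is under 0.05, bars mark the median of each class, and the grey band spans the central 50% of all genes. The constitutive beta ring genes lie at -0.09 or below, while the alpha ring genes lie between -0.15 and 0.03.

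These values depend on what the libraries are scaled to. Expressing each mean as a part of its group's sum adds 0.14 to every log2 ratio and moves the median of all genes to 0.14. Those sums were 955256 in mutant molars, against 1050680 in control molars. Most of the gap between the sums lies in 2 ameloblast markers, Amelx (112174 and 174946, in the same order) and Ambn (53601 and 72752). Neither gene passed the adjusted threshold. Under that scaling the median of the proteasome genes becomes 0.08 and that of every role class but the constitutive beta ring (-0.08) becomes positive. The median of the members lies 0.06 below that of all genes under either scaling by construction, since every ratio shifts by the same amount. Directions below are to be read relative to the median of all genes.

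**Figure D2:**
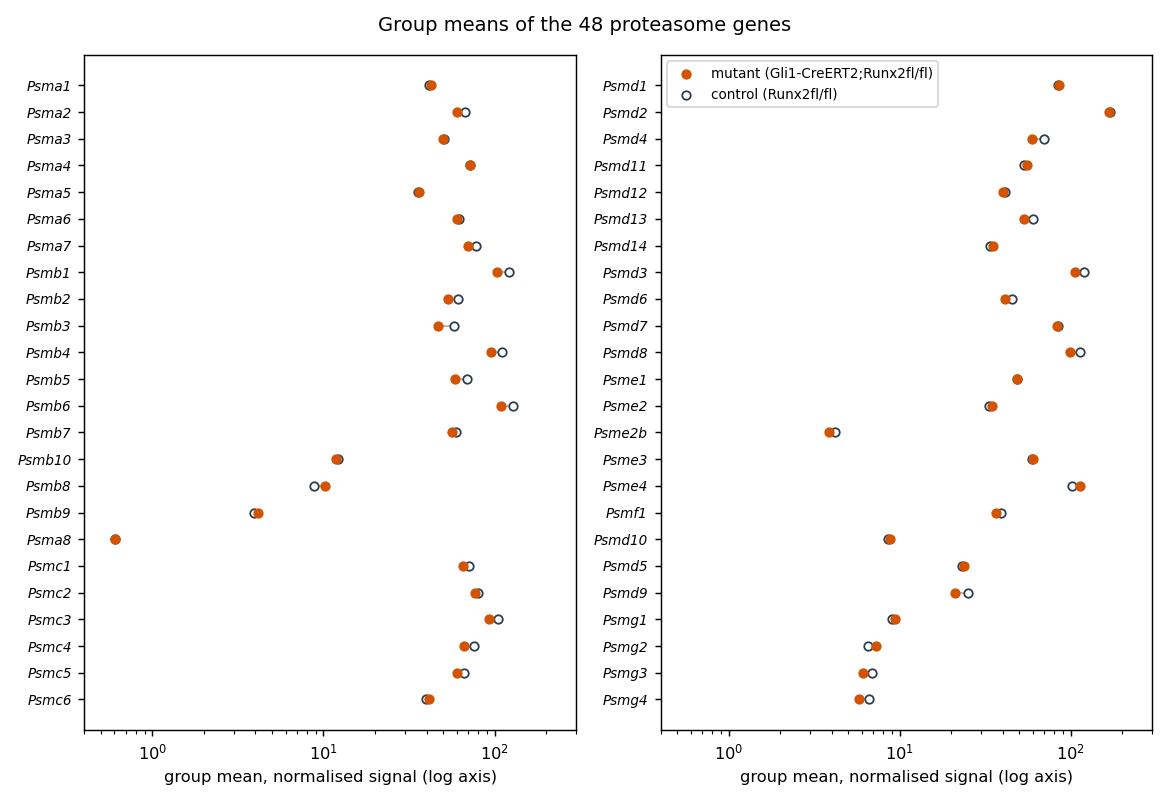
Group means of normalised signal (log axis) for the 48 proteasome genes, with mutant means as filled points and control means as open points, and a line joining both means of a gene. The 2 points of most genes nearly coincide, and Psmb3, at 46.6 in mutant molars, against 58.1 in control molars, has the widest separation.

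The 7 constitutive beta ring genes had lower means in the mutant in every case, with log2 ratios from -0.32 to -0.09 and a median of -0.22. Of these, 6 (85.7%) had an unadjusted p under 0.05, against the 9.4% of all genes given above, and none passed the adjusted threshold. The catalytic subunits come first. Psmb5, which carries the chymotrypsin-like activity, averaged 58.9 in mutant molars, against 69.4 in control molars, a log2 ratio of -0.24 (p = 0.00703, adjusted p = 0.122 in the authors' deposited table). Psmb6, which carries the caspase-like activity, had 109.1 in mutant molars, against 128.03 in control molars, at -0.23 (p = 0.0153, adjusted p = 0.165 in the authors' deposited table). Psmb7, which carries the trypsin-like activity, had 56.2 in mutant molars, against 59.8 in control molars and was the 1 beta ring gene with an unadjusted p over 0.05 (log2 ratio -0.09, adjusted p = 0.569 in the authors' deposited table). Reads of Psmb7 may be mixed with those of Nek6, since the genes share 405 exonic bases on opposite strands.

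The remaining beta ring genes encode subunits without an active site. Psmb3 had 46.6 in mutant molars, against 58.1 in control molars, 1.25-fold lower in the mutant and the widest difference of any member (log2 ratio -0.32, p = 0.00562, adjusted p = 0.114 in the authors' deposited table). Psmb1 had 103.9 in mutant molars, against 121.2 in control molars, a log2 ratio of -0.22. Psmb4 stood at 95.9 in mutant molars, against 110.2 in control molars, and Psmb2 at 53.4 in mutant molars, against 61.0 in control molars. All of these differences are between 1.14-fold and 1.25-fold, and without values per library it cannot be said whether the groups overlap.

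The 250 bases before the RefSeq start of the 2 genes with the lowest p, Psmb3 and Psmb5, are shown because these members stand first in the table. That of the immunoproteasome gene Psmb9, described below, is shown because it reaches into the start of the divergent peptide transporter gene Tap1. They are printed 5′ to 3′ on the strand of each gene, from RefSeq on GRCm38.p6, at chr11:97703184-97703433 (plus strand), chr14:54617996-54618245 (minus strand) and chr17:34187331-34187580 (minus strand). Capitals mark matches, on either strand, to CCAAT (bound by NF-Y), TGACNNNGC (the antioxidant response element core, bound by NFE2L1 and NFE2L2), GAAANNGAA (the core of the interferon-stimulated response element) and TGTGGT (the RUNX core).
Psmb3: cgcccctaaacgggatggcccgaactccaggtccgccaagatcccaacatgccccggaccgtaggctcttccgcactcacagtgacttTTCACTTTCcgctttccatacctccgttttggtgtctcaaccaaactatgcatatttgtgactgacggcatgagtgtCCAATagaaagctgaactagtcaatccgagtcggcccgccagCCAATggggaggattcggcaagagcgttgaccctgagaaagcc
Psmb5: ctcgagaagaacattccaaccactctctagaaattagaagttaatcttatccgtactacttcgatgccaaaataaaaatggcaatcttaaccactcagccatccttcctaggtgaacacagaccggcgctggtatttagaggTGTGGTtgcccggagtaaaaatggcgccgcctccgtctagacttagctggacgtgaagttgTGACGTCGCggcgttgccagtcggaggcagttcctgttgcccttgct
Psmb9: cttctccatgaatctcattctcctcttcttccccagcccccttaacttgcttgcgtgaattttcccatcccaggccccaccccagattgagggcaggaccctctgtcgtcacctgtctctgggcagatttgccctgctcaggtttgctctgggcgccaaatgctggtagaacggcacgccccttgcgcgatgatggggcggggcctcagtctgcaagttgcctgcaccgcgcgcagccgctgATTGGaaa

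In the Psmb3 window, CCAAT matched at 85 and at 43 bases before the start and the GAAANNGAA motif, in its reverse complement, at 162. Psmb5 had TGTGGT at 108 and TGACNNNGC at 47 bases before the start, and Psmb9 had CCAAT, in its reverse complement, at 8. A match is a run of letters and not a binding site. Windows of 300 bases, which reach 50 bases past the start, were given for 40 of the 48 members, 43 windows in all. TGACNNNGC was in 6 of these (14.0%), against 12.4% of all 32851 promoter windows. The shares were 30.2% against 37.4% for CCAAT, 16.3% against 8.56% for GAAANNGAA and 14.0% against 16.8% for TGTGGT. Over the 15371 windows of genes in the table, the shares were 14.1% for TGACNNNGC, 37.3% for CCAAT, 7.12% for GAAANNGAA and 12.6% for TGTGGT. The order for TGACNNNGC and for TGTGGT therefore depends on the windows they are set against. Among the alpha ring windows, 5 of 8 held CCAAT and none held TGACNNNGC or GAAANNGAA. The 4 windows of beta ring genes held TGACNNNGC in 2 cases (Psmb5 and Psmb6) and GAAANNGAA in 2 (Psmb3 and Psmb4).

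The alpha ring genes lay closer to no difference. Their log2 ratios ran from -0.15 to 0.03 with a median of -0.02, and none had an unadjusted p under 0.05. The lower mean was in the mutant for 5 of 7 (71.4%), against 49.4% of all genes. Psma7 had the lowest p of the ring, with 70.3 in mutant molars, against 77.8 in control molars (p = 0.0901, adjusted p = 0.330 in the authors' deposited table). Psma2 stood at 60.5 in mutant molars, against 67.2 in control molars, the same log2 ratio of -0.15 after rounding. Alpha subunits have no proteolytic site, and the other members of the ring were closer to level. Psma6 had 59.9 in mutant molars, against 62.1 in control molars, and Psma3 50.2 in mutant molars, against 50.8 in control molars. Psma4, whose tail helps to close the gate, as known from yeast (71.6 in mutant molars, against 71.7 in control molars), Psma1 (42.5 and 41.6, in the same order) and Psma5 (36.0 and 35.6) differed by less than 2%. The median of the beta ring lay 0.21 below that of the alpha ring in log2. That gap was not tested, because it needs values per library. The testis-type alpha subunit Psma8 was near the bottom of the signal, at 0.607 in mutant molars, against 0.606 in control molars.

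Transcript GC content moves with the ratios in this table and bears on the gap between the rings. Among 13127 protein-coding genes with a mean of at least 1, the median log2 ratio was 0.19 in the GC-poorest eighth and -0.13 in the GC-richest. The 7 beta ring genes had a median GC content of 51.3% and the 7 alpha ring genes 45.8%, so the trend alone separates them in the same direction. Across the 47 members with a mean of at least 1, log2 ratio and GC content gave Pearson's r = -0.38 and Spearman's rho = -0.40, as a description over genes of the same libraries. When a smooth trend on GC content and exonic length was subtracted, the median of the beta ring was -0.15 and that of the alpha ring -0.07, and the gap between the rings was 0.08. All 7 beta ring genes kept the lower mean, but 2 of them (Psmb1 at -0.33 and Psmb3 at -0.26) had an unadjusted p under 0.05 in place of 6. Psma2, the GC-poorest member at 40.6%, went to -0.34.

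**Figure D3:**
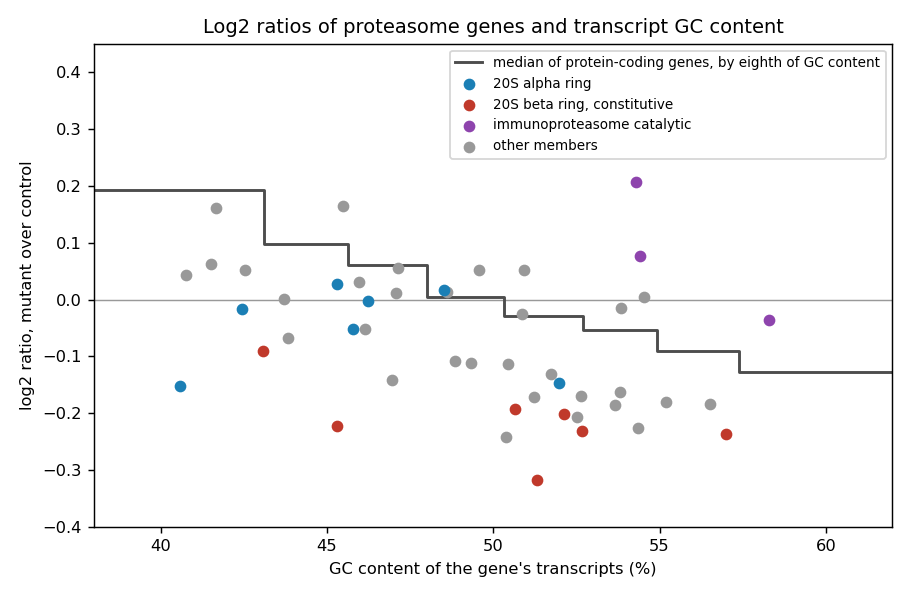
Log2 ratio (mutant over control) of each proteasome gene against the GC content of its transcripts in percent, coloured by class. The stepped line is the median of protein-coding genes in each eighth of GC content, which runs from 0.19 down to -0.13. The beta ring genes lie below the line at every GC content, the 3 immunoproteasome genes above it.

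Over all 48 members that subtraction left 5 with an unadjusted p under 0.05, all lower in the mutant, where 6.02% of 17561 genes were lower and 7.18% higher at that level. They were Psma2, Psmb1, Psmb3, Psmd8 and Psmd9, and 3 of the 5 were among the 11 found before it. None passed the adjusted threshold, which 0.165% of all genes did after the subtraction. The members' median was then -0.09, and 37 of 48 lay below 0, where 9162 of 17561 genes did.

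Genes of the 19S base gave a median of -0.11 over 9 members. Of these, 7 (77.8%) had the lower mean in the mutant, against 49.4% of all genes. An unadjusted p under 0.05 was found for 3 (33.3%), beside the 9.4% of all genes, and for none with the GC and length trend subtracted. Psmc1 to Psmc6 encode the ATPases that unfold substrates. Psmc4 had 66.2 in mutant molars, against 75.4 in control molars (log2 ratio -0.19). Psmc3 had the lowest p of the ATPases, with 93.3 in mutant molars, against 104.4 in control molars (log2 ratio -0.16, p = 0.0404, adjusted p = 0.238 in the authors' deposited table), and it shares 215 exonic bases with Slc39a13 on the opposite strand. The other ATPase genes had an unadjusted p above 0.05. Psmc5 had 60.1 in mutant molars, against 65.9 in control molars, Psmc1 65.6 and 71.0 in the same order, and Psmc2 76.4 and 80.1. Psmc6 was the ATPase gene with the higher mean in the mutant, at 41.3 against 39.5 in the control.

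The other base genes encode scaffolds and a ubiquitin receptor. Psmd4, the receptor, had 59.5 in mutant molars, against 69.6 in control molars (log2 ratio -0.23, p = 0.0256, adjusted p = 0.199 in the authors' deposited table). Scaffold genes Psmd1 (85.2 in mutant molars, against 84.5 in control molars) and Psmd2 (166.2 in mutant molars, against 169.1 in control molars) differed by less than 2%.

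In the lid, 6 of 8 genes (75%) had the lower mean in the mutant, against 49.4% of all genes, and the median was -0.10. An unadjusted p under 0.05 was found for 2 (25%), beside the 9.4% of all genes. With the GC and length trend subtracted it was found for 1, where 6.02% of 17561 genes were lower at that level. Psmd8 had 98.3 in mutant molars, against 113.5 in control molars (log2 ratio -0.21, p = 0.00980, adjusted p = 0.139 in the authors' deposited table). Psmd13 stood at 53.2 in mutant molars, against 59.9 in control molars and shares 342 exonic bases with Sirt3 on the opposite strand. Psmd3 had 105.4 in mutant molars, against 119.7 in control molars, and Psmd6 41.0 in mutant molars, against 45.2 in control molars. Psmd14, the enzyme that cuts ubiquitin chains off substrates, did not share the lower mean, with 34.9 in mutant molars, against 33.8 in control molars. Psmd11 (55.6 in mutant molars, against 53.5 in control molars), Psmd12 (40.0 and 41.4, in the same order) and Psmd7 (82.8 and 83.7) lay within 4% of equal means.

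Each immunoproteasome gene had a higher log2 ratio than the constitutive gene that it replaces, a difference that has no test here. Psmb8, which replaces Psmb5, had 10.2 in mutant molars, against 8.80 in control molars, the highest log2 ratio of the 48 members at 0.21 (p = 0.266, adjusted p = 0.545 in the authors' deposited table). Psmb9, which replaces Psmb6, had 4.16 in mutant molars, against 3.94 in control molars (log2 ratio 0.08, adjusted p = 0.820 in the authors' deposited table). Psmb10, which replaces Psmb7, had 11.9 in mutant molars, against 12.2 in control molars (log2 ratio -0.04, adjusted p = 0.893 in the authors' deposited table). None of the 3 had an unadjusted p under 0.05. Psmb8 and Psmb9 lie in the MHC region of chromosome 17, on either side of the transporter gene Tap1 (34187553 to 34197225). Psmb9 is at 34181987 to 34187764 (minus strand) and Psmb8 at 34197721 to 34201454 (plus strand, GENCODE M21 on GRCm38). Psmb9 shares 212 exonic bases with Tap1 on the opposite strand. Whether counting used strand is not given in the sources used here, so reads of these 2 genes may be mixed.

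Set against its counterpart, Psmb8 was 17.2% of Psmb5 in mutant molars, against 12.7% in control molars, a difference of 0.44 in log2. Psmb9 was 3.81% of Psmb6 in mutant molars, against 3.08% in control molars (0.31), and Psmb10 was 21.1% of Psmb7 in mutant molars, against 20.3% in control molars (0.05). These percentages compare signal that may differ in scaling for length, so they are read between groups within a pair. With the GC and length trend subtracted they were 0.32 for Psmb8, 0.29 for Psmb9 and 0.34 for Psmb10. Leukocytes express immunoproteasome genes. Of 12 measured leukocyte markers, 10 had higher and 2 lower means in the mutant, where 8920 of all 17631 genes had higher means. The 12 markers summed to 416.2 in mutant molars, against 375.0 in control molars. An unadjusted p under 0.05 was found for 3 (25%), all higher, against 9.89% of all genes. Ptprc, the pan-leukocyte gene, had 8.65 in mutant molars, against 5.50 in control molars (adjusted p = 0.0608 in the authors' deposited table). No leukocyte marker passed the threshold, which 0.788% of all genes did, and no listed marker that was measured was at 0. The part of leukocytes in the immunoproteasome values was not tested.

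**Figure D4:**
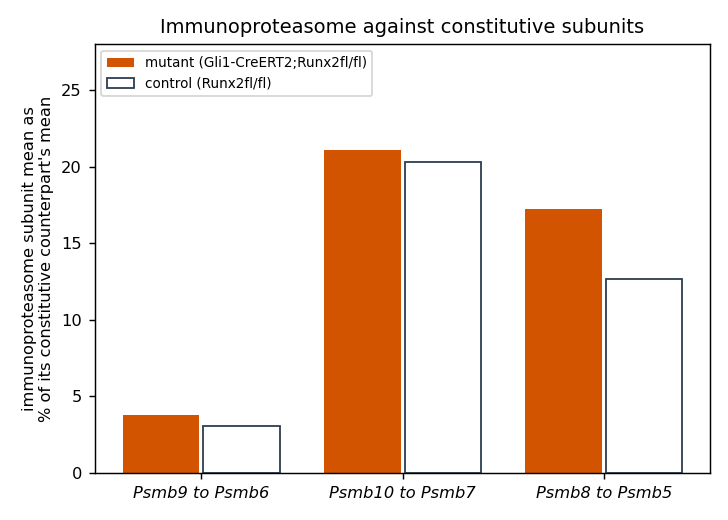
Mean of each immunoproteasome catalytic gene as a percentage of the mean of the constitutive gene it replaces, with mutant bars left of control bars. Psmb8 stands at 17.2% of Psmb5 in mutant molars, against 12.7% in control molars, and the Psmb10 pair is nearly level. The bars are ratios of the authors' group means and have no error.

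Activators and the inhibitor-like regulator gave no member with an unadjusted p under 0.05. The activator genes Psme1 and Psme2, which form the interferon-inducible PA28 ring, had 48.7 and 34.6 in the mutant, against 48.6 and 33.4 in the control. The nuclear activator gene Psme3 had 60.0 in mutant molars, against 59.4 in control molars. Psme4, whose product PA200 acts in histone turnover, had the lowest p of the activators, with 113.3 in mutant molars, against 101.3 in control molars (log2 ratio 0.16, adjusted p = 0.412 in the authors' deposited table), and the GC and length subtraction took it to -0.04. Psme2b, a retrocopy of Psme2 whose reads are hard to separate from its parent's, had 3.87 in mutant molars, against 4.18 in control molars. Psmf1, which encodes PI31, had 36.4 in mutant molars, against 39.2 in control molars (log2 ratio -0.11, adjusted p = 0.421 in the authors' deposited table).

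Assembly chaperone genes had both higher and lower means. Of the base chaperones, Psmd9 had 21.1 in mutant molars, against 24.9 in control molars (log2 ratio -0.24, p = 0.0648, adjusted p = 0.288 in the authors' deposited table). Psmd5 stood at 23.7 in mutant molars, against 23.2 in control molars, and Psmd10, also known as gankyrin, at 8.81 in mutant molars, against 8.50 in control molars. Psmg1 and Psmg2, partners in alpha ring assembly, had 9.38 and 7.30 in the mutant, against 9.05 and 6.51 in the control. Their companions Psmg3 and Psmg4 had 6.09 and 5.81 in the mutant, against 6.85 and 6.59 in the control. The lowest p of these 4 core chaperones was that of Psmg4 (adjusted p = 0.477 in the authors' deposited table). On the log2 scale, the Psmg1 and Psmg2 ratios were 0.05 and 0.17 and those of Psmg3 and Psmg4 -0.17 and -0.18.

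Lower means without adjusted calls were also seen in other housekeeping complexes. The 83 genes named Rpl or Rps of the cytosolic ribosome had a median log2 ratio of -0.24, 79 had the lower mean in the mutant and 56 (67.5%) an unadjusted p under 0.05, although many have near-identical copies. The 78 mitochondrial ribosomal genes had a median of -0.08 with 11 (14.1%) such genes, beside the 9.4% of all genes, and the 7 measured CCT chaperonin subunit genes -0.01 with none. With the GC and length trend subtracted the medians were -0.09 for the proteasome, -0.18 for the cytosolic ribosome, -0.07 for the mitochondrial ribosome and -0.07 for CCT, whose 7 genes then all lay below 0. At an unadjusted p under 0.05 the subtraction left 37 lower of the 83 cytosolic ribosome genes. Of the 78 mitochondrial ribosomal genes it left 8 lower and 1 higher. Over 17561 genes, 6.02% were lower and 7.18% higher at that level. None of these differences between groups was tested. In the same libraries all 7 erythroid markers had lower means, summing to 425.8 in mutant molars, against 946.5 in control molars. So did the 4 osteoblast, the 4 ameloblast and the 4 skeletal muscle markers. The muscle markers had little signal, summing to 1.89 in mutant molars, against 4.29 in control molars. An unadjusted p under 0.05 was found for 7 erythroid, 3 osteoblast, 1 ameloblast and 2 muscle markers, beside the 9.4% of all genes. The part of these cell types in the proteasome values was not tested.

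Genes that work with the proteasome were taken from 5 lists, chosen by function. None of the 47 genes passed the threshold, which 0.788% of all genes did. The 3 with the lowest p in each list are named here. At an unadjusted p under 0.05, 8 (17.0%) were higher and 4 (8.51%) lower in the mutant, against 9.89% higher and 9.4% lower of all genes. With the GC and length trend subtracted, 2 of the 47 were higher and 3 lower at that level, where 7.18% of 17561 genes were higher and 6.02% lower. Among 11 proteasome-associated proteins, 1 was lower and 2 were higher at that level, with a median log2 ratio of 0.06. The direction of this list did not hold under the trend subtraction, which gave a median of -0.10, 2 lower and none higher at that level, and 8 of 11 genes below 0. Adrm1, a ubiquitin receptor of the 19S particle, had 52.1 in mutant molars, against 68.0 in control molars (log2 ratio -0.38, adjusted p = 0.106 in the authors' deposited table). Before the trend was subtracted, this was a wider difference than that of any of the 48 members. The ubiquitin ligase gene Ube3a had 73.4 in mutant molars, against 55.2 in control molars (adjusted p = 0.116 in the authors' deposited table). For the deubiquitinase gene Usp14 the means were 23.6 in mutant molars, against 20.0 in control molars (adjusted p = 0.192, likewise from the authors' deposited table). After that subtraction these genes stood at -0.29 for Adrm1, -0.07 for Ube3a and 0.0018 for Usp14. The members Psma2 (-0.34) and Psmb1 (-0.33) were then lower than Adrm1.

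Among 5 ubiquitin and E1 enzyme genes the median was 0.09, with 1 lower and 1 higher at an unadjusted p under 0.05. Rps27a, which encodes ubiquitin fused to a ribosomal protein, had 325.4 in mutant molars, against 381.9 in control molars (log2 ratio -0.23). The polyubiquitin gene Ubb had 1249 in mutant molars, against 1410 in control molars (log2 ratio -0.18, adjusted p = 0.356 in the authors' deposited table). Uba6, an E1 gene, had 15.4 in mutant molars, against 11.6 in control molars (log2 ratio 0.41, adjusted p = 0.192 in the authors' deposited table), which became 0.03 after the subtraction. Shuttle factors and p97 cofactors, which deliver ubiquitinated proteins, had a median of -0.01 over 10 genes, with 1 lower and 1 higher. Vcp, the p97 ATPase itself, had 382.5 in mutant molars, against 344.5 in control molars, while its cofactors Nploc4 (61.7 and 70.8, in the same order) and Ufd1 (32.6 and 37.3) had lower means.

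The 12 transcriptional regulators of proteasome genes had a median of -0.03, with 1 lower and 1 higher at that level. Nfe2l1, the factor that raises proteasome genes when the proteasome is inhibited, had 239.01 in mutant molars, against 230.8 in control molars (log2 ratio 0.05) and was named for this role after its value was seen. Mafk, which encodes a small MAF partner, had 10.4 in mutant molars, against 12.9 in control molars (adjusted p = 0.144 in the authors' deposited table). Mafg, of the same family, had 36.5 in mutant molars, against 41.4 in control molars (log2 ratio -0.18), and the NF-Y subunit gene Nfya had 33.0 in mutant molars, against 26.1 in control molars (0.34). Of 9 antigen processing genes, 4 (44.4%) had the lower mean in the mutant, against 49.4% of all genes, and the median was 0.04. At an unadjusted p under 0.05, 3 (33.3%) were higher and none lower, beside the 9.89% and 9.4% of all genes. With the trend subtracted 2 were higher and none lower, the median was 0.06, and Erap1 had a log2 ratio of 0.08 in place of 0.28. Calr, an endoplasmic reticulum chaperone, had 778.4 in mutant molars, against 571.3 in control molars (log2 ratio 0.45, adjusted p = 0.0892 in the authors' deposited table), Pdia3 450.1 in mutant molars, against 387.3 in control molars, and the peptidase gene Erap1 28.2 in mutant molars, against 23.3 in control molars. The transporter genes Tap1 and Tap2, named for their place beside the immunoproteasome genes after their values were seen, lay close to equal, Tap1 at 13.9 in both groups and Tap2 at 17.1 in mutant molars, against 16.4 in control molars.

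**Figure D5:**
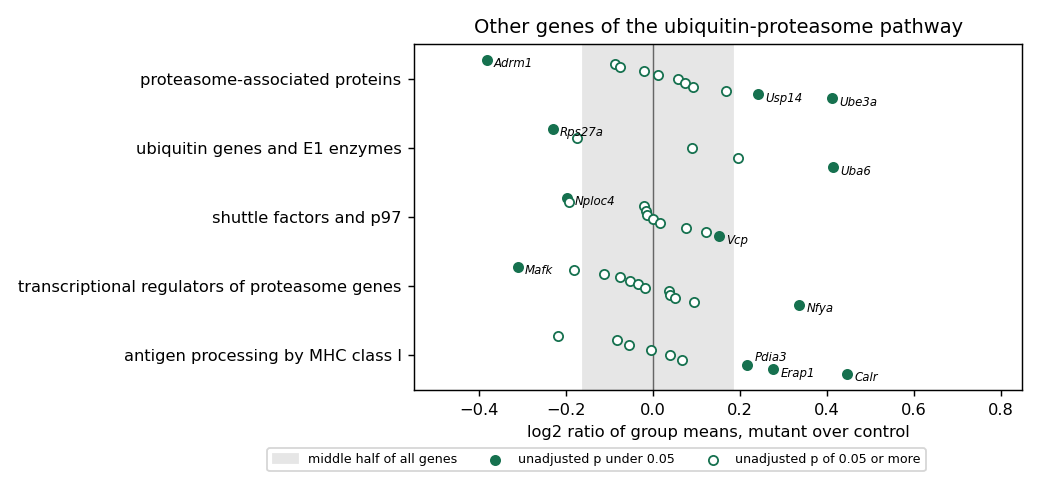
Log2 ratio of group means, mutant over control, for 47 other genes of the ubiquitin-proteasome pathway in 5 lists. Each point is 1 gene, filled and named where the unadjusted p is under 0.05, and the grey band spans the central 50% of all genes. Adrm1 lies lowest at -0.38 and Calr highest at 0.45, and no gene passed the adjusted threshold.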

How the data were processed

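The data are 1 table of the whole series. The submitters' processing notes name STAR 2.6.1d, Partek and mm10 but not what each was used for. The name of the table holds the labels Partek and GSA, and its group means are headed LSMean. How reads were counted, normalised and filtered, which model was fitted, and with which annotation, is not given in the sources used here. The table compares, per the file headers, knockout (here mutant) with wild type (here control). It holds the authors' group means and a total, deposited as normalised signal, the deposited ratio of the means, a deposited signed fold change score, which was not used, and the authors' p-value and adjusted p-value per gene. On all 17631 genes (relative tolerance 1e-06) the ratio equalled the quotient of the means, the total 4 times their sum, and the adjusted p the Benjamini-Hochberg adjustment. Depth per library is unknown, so no interval or detection limit is given.

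Log2 ratios, counts, medians and shares were computed with Python 3.11.15 and pandas 2.3.3. GC content of transcripts and exonic length came from GENCODE M21 on GRCm38, matched by symbol for 17561 genes (99.6%). A smooth trend on GC content and log2 length was fitted to the log2 ratio, and to the signed z from each p-value, with mgcv 1.9.3 in R 4.3.3 over 13127 protein-coding genes with a mean of at least 1. It took 18.9% and 25.9% of their variance. The trend was subtracted and p-values recomputed. It removes any real change that follows GC content or length. Of the members, 7 share exonic bases with another gene of the table, Psmd1 and Psme2b with one on the same strand.

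A count test could not be used, since there are no values per library. Every member is named. p-values are printed for the member with the lowest p in each class and for the catalytic subunits, and pathway genes are the 3 of each list with the lowest p. Some genes of the pathway lists are not reported here, and the counts leave them out. The members and lists were chosen with earlier results of these data known. Alternatives changed the threshold, the low-value filter, the scaling, the pseudocount, the summary and the trend. Protein sequences were not used here.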

Additional observations from a re-analysis of the deposited data

How the results depend on the processing

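No paired analysis was possible because the table gives group means and no value per library, and for the same reason no library could be left out in turn. The count of proteasome genes past the threshold was 0 in the authors' adjustment, at an adjusted p under 0.1, among genes with a mean of at least 1, and with the GC and length trend subtracted, against 11 at an unadjusted p under 0.05. For the 47 other pathway genes, whose alternatives were chosen after seeing the data, it was 0, with 1 at an adjusted p under 0.1, 12 at an unadjusted p under 0.05 and 0 with the trend subtracted. A median was taken as moved when it shifted by more than 0.0915 in log2, the median over members of the log2 ratio divided by the z of its p-value. Scaling each mean to its group's sum added 0.14 to every ratio by its construction. It gave medians of 0.077 for all members, 0.12 for the alpha ring, -0.084 for the beta ring, 0.023 for the 19S base, 0.041 for the lid, 0.21 for the immunoproteasome, 0.15 for the activators and 0.17 for the assembly chaperones. Subtracting the median of all genes, the filter at a mean of 1, a pseudocount of 1, the trend and the ratio of summed means shifted the class medians by less than that limit. The limit is larger than the size of the main medians of all members, the alpha ring, the immunoproteasome, the activators and the assembly chaperones. For these, a smaller shift does not show that the median is stable. The median of the assembly chaperones (0.03) was -0.02 with the trend subtracted and -0.06 as a ratio of sums, so it has no stable direction. With the trend subtracted, the log2 difference of Psmb10 to Psmb7 moved from 0.05 to 0.34 and that of Psmb8 to Psmb5 from 0.44 to 0.32; the cause was not tested beyond the trend itself.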
